A study of Homo sapiens with 24 samples.

Results

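The genes described here encode parts of the lysosome and of autophagy, and they were taken from a list of 38 genes: hydrolases and other luminal proteins, membrane proteins, subunits of the proton pump, the transcription factors TFEB and TFE3, and proteins that build autophagosomes. A gene was used where a core row of the array (the set of best annotated exons, summarised per gene) carried it as its only gene symbol, which held for 30 of the 38, out of 14232 genes tested in all. Each of the 30 had 1 such row, so no measured value entered the choice of row for them. The list itself was drawn up with earlier results of these data known. The other 8 (CTSD, CTSL, GLB1, NPC2, SQSTM1, GABARAPL1, WIPI1 and BECN1) share their core rows with other symbols and were not analysed here. CTSA, HEXA, ATG7 and NPC1 also have core rows shared with other symbols, which were not used. Both cell lines used, MHH-CALL4 and MUTZ-5, are established lines grown from human precursor B acute lymphoblastic leukemias. Cells of each line were given 500 nM JQ1, an inhibitor that blocks the binding of BET bromodomains to acetylated histones, or the solvent DMSO, for 8 hours, and 3 arrays were run for each of the 4 groups. Both lines were grown in the same medium with 20% serum, and the disease is represented by these lines alone. Values are log2 units of the RMA method, in which a difference of 1 is a factor of 2.

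Lysosomes are acidic compartments in which hydrolases break down proteins, lipids, glycans and nucleic acids. A vacuolar ATPase pumps protons into them, ion channels and lipid exporters in their membrane return products to the cytosol, and autophagosomes bring them cytoplasmic cargo. Many of these genes carry in their promoters a palindromic E-box within a longer element named CLEAR, which TFEB and TFE3 bind, and MYC binds E-boxes of the same core. In lymphoid cells, lysosomal proteases also process antigens and the invariant chain of MHC class II.

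More of the lysosome and autophagy genes rose than fell under JQ1 in both lines. In MHH-CALL4 13 of the 30 rose, 3 fell and 14 did not pass the test (limma, adjusted p under 0.05 over all genes tested). This is 43.3% higher and 10.0% lower, against 11.0% and 17.5% of all genes tested. In MUTZ-5 16 rose, 2 fell and 12 did not pass, or 53.3% higher and 6.67% lower, against 9.06% and 13.0% of all genes. Calls were more frequent among genes with higher values. In a fit limited to the 7116 genes at or above the median level, 1083 rose and 2273 fell in MHH-CALL4. In MUTZ-5 1316 of them rose and 1729 fell. Of the 27 members in that fit, 13 rose and 3 fell in MHH-CALL4, and 15 rose and 3 fell in MUTZ-5. The median JQ1 effect of the 30 genes was 0.18 log2 in MHH-CALL4, where the median of all genes was 0.0065, and 0.28 in MUTZ-5, where that of all genes was 0.0084. All 3 JQ1 arrays lay above all 3 DMSO arrays for 15 members in MHH-CALL4 (19.7% of all genes) and for 18 in MUTZ-5 (13.8% of all genes). They lay below all DMSO arrays for 5 members in MHH-CALL4 (24.1% of all genes) and for 4 in MUTZ-5 (18.7% of all genes). Sizes were modest: only NEU1 and CTSK in MHH-CALL4 reached a 2-fold difference, and no member did so in MUTZ-5.

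**Figure D1:**
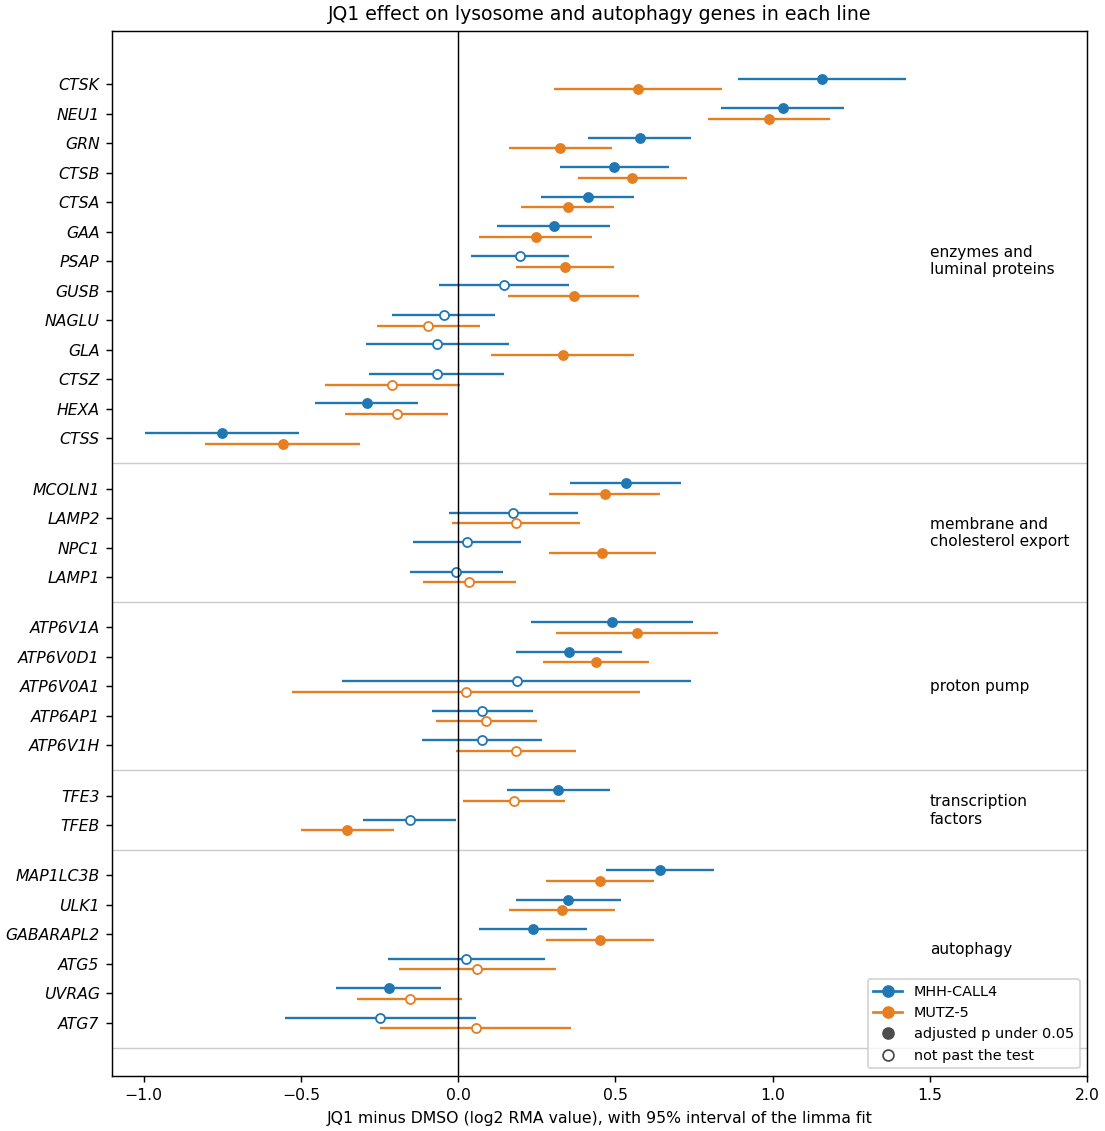
JQ1 minus DMSO in log2 units for the 30 genes, grouped by role, with the 95% interval of the limma fit (MHH-CALL4 blue, MUTZ-5 orange, filled points past adjusted p under 0.05, 3 arrays per group). CTSK and NEU1 lie farthest to the right in MHH-CALL4 at 1.16 and 1.03, CTSS lies farthest to the left in both lines, and ATP6V0A1 has the widest intervals.

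Markers of several cell types were compared with the median gene, a level that does not separate cell types. Of 8 measured markers of precursor B cells, 7 were at or above the median gene in every group, but several fell under JQ1. Their mean lay between 11.49 and 11.53 log2 units in MHH-CALL4 JQ1 arrays, against 11.77 to 11.89 in DMSO arrays, and between 11.43 and 11.47 in MUTZ-5 JQ1 arrays, against 11.66 to 11.78 in DMSO arrays. In MHH-CALL4 4 of the 8 fell and none rose, and in MUTZ-5 4 fell and RAG1, a recombinase of antigen receptor genes, rose by 0.26 (limma adjusted p = 0.0237). VPREB1, a part of the surrogate light chain, fell by 1.03 in MHH-CALL4 and fell by 1.09 in MUTZ-5 (adjusted p = 3.55e-06 and 2.97e-06). CD79A and CD22 also fell in both lines, EBF1 fell in MHH-CALL4 and CD79B fell in MUTZ-5. MYC, a known target of BET inhibition, fell by 2.05 log2 in MHH-CALL4 and by 1.32 in MUTZ-5 (limma adjusted p = 8.56e-10 and 5.33e-08). Hydrolases of this list are also abundant in myeloid cells. Of 8 measured markers of monocytes, macrophages and granulocytes, 1 rose and 2 fell in MHH-CALL4, and their mean lay between 7.10 and 7.22 in JQ1 arrays, against 7.45 to 7.53 in DMSO arrays. The largest change was that of MPO, which fell by 2.47 log2 there, to 8.04 under JQ1 from 10.51 under DMSO. LYZ fell by 0.83 and CSF3R rose by 0.34. The median effect of the 8 markers in MHH-CALL4 was 0.018, with 5 effects above 0 and 3 below. In MUTZ-5 none rose and 1 fell, with means of 7.03 to 7.08 in JQ1 arrays and 6.93 to 7.14 in DMSO arrays. Of the 8 myeloid markers, 2 were at or above the median gene in MHH-CALL4 DMSO arrays and 1 in each other group. So were 1 of 8 T and NK markers, 2 of 5 erythroid and megakaryocyte markers and 1 of 6 stromal markers in every group. NKG7 (T and NK) fell by 0.96 in MHH-CALL4 and 0.64 in MUTZ-5. PDGFRB (stromal) fell by 0.85 and 0.66. The part of any marker list in the results on lysosomal genes was not tested. Fewer cells of a kind and less RNA per cell cannot be told apart in bulk RNA. MUTZ-5 DMSO replicate 3 gave the highest of the 3 DMSO values of that line for 22 of the 30 members and replicate 2 the lowest for 24, and along the main axis of variation within groups replicate 3 stood at one end (score -0.55) and MHH-CALL4 JQ1 replicate 3 at the other (0.47). Members that rose in MUTZ-5 numbered 16 without DMSO replicate 3 and 13 without DMSO replicate 2, and 11 rose in MHH-CALL4 without JQ1 replicate 3. Such counts were not particular to these arrays. Leaving out MUTZ-5 DMSO replicate 1 or JQ1 replicate 2 also gave 13, and leaving out MHH-CALL4 DMSO replicate 1 or 3 also gave 11.

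Promoters of 20 of the 30 genes were in the RefSeq table used (250 bases before to 50 after the transcription start, GRCh38.p14). The E-box CACGTG, which reads the same on both strands, was found in 6 of the 20 (30.0%), in NEU1, MCOLN1, GAA, CTSA, ATP6V0D1 and LAMP1, against 8.99% of the 11386 genes tested that have a promoter in the table and 7.43% of all 27305 promoters. The longer palindrome TCACGTGA, the core of the CLEAR element, which contains CACGTG, was found in 5 (25.0%), against 1.52% of genes tested and 1.04% of all promoters. CLEAR was first described from lysosomal promoters, so its frequency here is not an independent result. The promoters of 4 of these genes are printed because the same short motif stands in genes with large, small and no called JQ1 effects; they run 5′ to 3′ along the gene, and capitals mark each CACGTG. NEU1 lies at chr6:31862772-31863071 on the minus strand, MCOLN1 at chr19:7522374-7522673 on the plus strand, GAA at chr17:80101331-80101630 on the plus strand and LAMP1 at chr13:113296989-113297288 on the plus strand.
NEU1: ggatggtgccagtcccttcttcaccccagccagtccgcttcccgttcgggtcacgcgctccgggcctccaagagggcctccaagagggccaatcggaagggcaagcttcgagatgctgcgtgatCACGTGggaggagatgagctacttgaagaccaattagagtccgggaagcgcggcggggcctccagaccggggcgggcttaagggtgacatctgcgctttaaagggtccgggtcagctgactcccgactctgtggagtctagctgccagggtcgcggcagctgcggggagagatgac
MCOLN1: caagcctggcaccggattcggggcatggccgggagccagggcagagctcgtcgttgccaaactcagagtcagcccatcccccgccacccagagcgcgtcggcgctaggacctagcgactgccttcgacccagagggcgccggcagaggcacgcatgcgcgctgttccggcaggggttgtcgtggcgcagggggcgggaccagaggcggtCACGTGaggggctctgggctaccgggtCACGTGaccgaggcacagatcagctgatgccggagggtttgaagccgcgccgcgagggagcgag
GAA: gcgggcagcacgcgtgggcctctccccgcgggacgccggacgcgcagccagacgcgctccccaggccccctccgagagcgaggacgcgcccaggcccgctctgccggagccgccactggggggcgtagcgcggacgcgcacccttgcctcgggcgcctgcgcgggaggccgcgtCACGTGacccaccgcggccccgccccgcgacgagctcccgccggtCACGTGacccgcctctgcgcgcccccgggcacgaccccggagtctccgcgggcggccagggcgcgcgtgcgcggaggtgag
LAMP1: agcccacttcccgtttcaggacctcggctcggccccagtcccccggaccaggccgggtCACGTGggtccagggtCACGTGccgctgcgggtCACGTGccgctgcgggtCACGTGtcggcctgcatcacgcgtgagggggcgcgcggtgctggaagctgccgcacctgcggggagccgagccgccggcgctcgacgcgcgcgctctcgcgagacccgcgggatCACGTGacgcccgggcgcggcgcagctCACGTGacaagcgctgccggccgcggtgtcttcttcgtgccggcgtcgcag
Counting the base before the start as -1, the first base of the motif stood at -126 in NEU1, at -41 and -14 in MCOLN1, at -76 and -31 in GAA, and at -192, -176, -159, -142, -28 and -1 in LAMP1. In CTSA it stood at -42 and -25 and in ATP6V0D1 at -59.

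Of the 6 members with the motif, 5 rose in MHH-CALL4 and 5 in MUTZ-5, with LAMP1 the exception in both lines. Among the 5 is GAA, whose call was lost in 3 of 20 alternative settings in MHH-CALL4 and in 13 of 20 in MUTZ-5. The median JQ1 effect of the 6 members was 0.38 log2 in MHH-CALL4 and 0.39 in MUTZ-5. Of the 14 members whose promoter window lacks it, 5 rose in MHH-CALL4 with a median of 0.11, and 7 rose and 1 fell in MUTZ-5 with a median of 0.25. Among all 1024 tested genes with the motif, 10.2% rose and 26.9% fell in MHH-CALL4, and 9.28% rose and 21.7% fell in MUTZ-5. Most called E-box genes were thus lower under JQ1, and the 5 called members were higher. Of 14 related lysosome and autophagy genes with the motif, described further on, 1 rose and 2 fell in MHH-CALL4 (median -0.013), and 1 rose and 1 fell in MUTZ-5 (median -0.011). This is 7.14% higher in each line, against 83.3% of the 6 members, which were chosen with earlier results of these data known. Whether the motif has a part in either share was not tested. For the longer TCACGTGA, 4 of 5 members rose in each line, and 0 of 4 related genes passed in either line. Among the 173 tested genes with TCACGTGA, 22 rose and 33 fell in MHH-CALL4 (12.7% and 19.1%), and 27 rose and 25 fell in MUTZ-5 (15.6% and 14.5%). In MUTZ-5 the excess of decreases among genes with CACGTG was thus not seen among those with TCACGTGA. LAMP1, with the most copies of the motif among the members, had a JQ1 effect of -0.0058 log2 in MHH-CALL4 and 0.035 in MUTZ-5. These are counts of letters in a window, with no test, and no binding was measured.

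**Figure D2:**
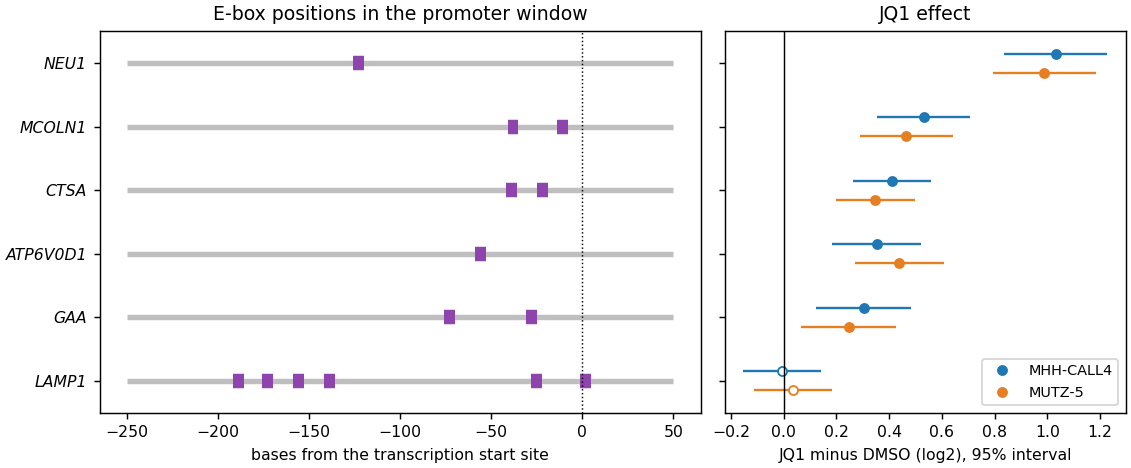
Left, positions of CACGTG (purple) in the promoter windows of the 6 members that hold it, in bases from the transcription start. Right, JQ1 minus DMSO in log2 units with the 95% limma interval (MHH-CALL4 blue, MUTZ-5 orange, filled points called). LAMP1 has 6 motifs and no called effect, and NEU1 has 1 motif and effects of 1.03 and 0.99.

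Among the luminal proteins NEU1, the lysosomal sialidase that trims sialic acid from glycoproteins, rose in both lines. Its values were 10.48, 10.41 and 10.34 in MHH-CALL4 JQ1 arrays, against 9.41, 9.38 and 9.34 in DMSO arrays. In MUTZ-5 they were 10.51, 10.59 and 10.56 under JQ1 and 9.66, 9.34 and 9.70 under DMSO. Every JQ1 array was above every DMSO array of its line. The difference was 1.03 in MHH-CALL4 (95% interval 0.84 to 1.23, 2.05-fold, limma adjusted p = 2.26e-06) and 0.99 in MUTZ-5 (0.79 to 1.18, 1.98-fold, adjusted p = 4.71e-06). CTSA, the protective protein that NEU1 needs for its activity, rose by 0.41 and 0.35 log2 in MHH-CALL4 and MUTZ-5 (limma adjusted p = 0.000524 and 0.00223). Its values were 12.34, 12.33 and 12.39 in MHH-CALL4 JQ1 arrays and 11.86, 12.02 and 11.94 in DMSO arrays, and the groups did not overlap in either line.

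Of the cysteine cathepsins, proteases of the lysosomal lumen, CTSK and CTSB rose and CTSS fell. CTSK, known for its role in bone resorption by osteoclasts, had 8.45, 8.46 and 8.03 in MHH-CALL4 JQ1 arrays, against 7.20, 7.14 and 7.14 in DMSO arrays. In MUTZ-5 it had 8.13, 8.10 and 7.97 under JQ1 and 7.46, 7.30 and 7.73 under DMSO. The groups did not overlap in either line, and CTSK rose by 1.16 in MHH-CALL4 (0.89 to 1.42, limma adjusted p = 1.29e-05) and by 0.57 in MUTZ-5 (0.31 to 0.84, adjusted p = 0.00412). All CTSK values were below the median gene (8.52), and without detection calls its signal over background is not known. CTSS, a protease of antigen-presenting cells that cleaves the invariant chain of MHC class II, ran the other way. It had 9.07, 8.80 and 8.63 in MHH-CALL4 JQ1 arrays, against 9.72, 9.54 and 9.50 in DMSO arrays, while MUTZ-5 gave 9.35, 9.31 and 9.10 under JQ1 and 9.80, 9.70 and 9.93 under DMSO. CTSS fell by 0.75 log2 in MHH-CALL4 and 0.56 in MUTZ-5 (limma adjusted p = 0.000245 and 0.00281), with every JQ1 array below every DMSO array of its line. RefSeq places CTSS and CTSK next to each other on chromosome 1 with no protein-coding gene between them. CTSB, a broad-range cathepsin, had 11.13, 11.07 and 11.15 in MHH-CALL4 JQ1 arrays and 10.58, 10.72 and 10.57 in DMSO arrays, and 10.76, 10.70 and 10.82 in MUTZ-5 JQ1 arrays and 10.22, 10.07 and 10.33 in DMSO arrays. It rose by 0.50 and by 0.55 (limma adjusted p = 0.000412 and 0.000217), with no overlap. CTSZ, a carboxypeptidase, differed by -0.068 and -0.21 and did not pass in either line.

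GRN and PSAP encode precursors that are cut into smaller proteins in the lysosome. GRN, the precursor of granulins, had 12.51, 12.47 and 12.58 in MHH-CALL4 JQ1 arrays, against 11.94, 11.96 and 11.92 in DMSO arrays. In MUTZ-5 it had 12.35, 12.37 and 12.48 under JQ1 and 12.20, 11.96 and 12.07 under DMSO. All JQ1 values were above all DMSO values, and GRN rose by 0.58 and by 0.32 (limma adjusted p = 7.42e-05 and 0.00700). PSAP, the precursor of the saposins that activate sphingolipid hydrolases, had JQ1 arrays above DMSO arrays in both lines. Its difference was 0.20 in MHH-CALL4 and did not pass (adjusted p = 0.0595), and PSAP rose by 0.34 in MUTZ-5 (adjusted p = 0.00368).

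The glycosidases of the list did not move as a block. GAA, the acid glucosidase that degrades glycogen, rose by 0.30 in MHH-CALL4 and by 0.25 in MUTZ-5 (limma adjusted p = 0.0151 and 0.0499), and the MUTZ-5 call was lost in 13 of 20 alternative settings. GUSB, a glucuronidase, and GLA, an alpha-galactosidase, rose in MUTZ-5 by 0.37 and 0.33 (adjusted p = 0.0135 and 0.0371). The GLA call was lost in 7 of 20 alternative settings, among them the replicate block (adjusted p = 0.0686), the fit to MUTZ-5 arrays alone (0.0743) and leaving out any MUTZ-5 array but DMSO replicate 3 (up to 0.151, without DMSO replicate 2). The GUSB call was lost in 3, without MUTZ-5 DMSO replicate 1, DMSO replicate 2 or JQ1 replicate 2. In MHH-CALL4 they differed by 0.15 and -0.067 and did not pass. HEXA, a subunit of the hexosaminidase that degrades GM2 ganglioside, had 10.00, 10.03 and 9.99 in MHH-CALL4 JQ1 arrays and 10.24, 10.41 and 10.24 in DMSO arrays. It fell by 0.29 there (adjusted p = 0.0117), and differed by -0.20 in MUTZ-5 without passing (adjusted p = 0.0897). NAGLU, which degrades heparan sulfate, differed by -0.046 and -0.095 and did not pass.

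Of the 4 membrane and lipid transport genes, MCOLN1, a calcium channel of the lysosomal membrane, rose in both lines. It had 9.99, 10.10 and 10.23 in MHH-CALL4 JQ1 arrays, against 9.48, 9.63 and 9.61 in DMSO arrays, while MUTZ-5 gave 10.30, 10.23 and 10.37 under JQ1 and 9.84, 9.75 and 9.90 under DMSO. No arrays overlapped, and the differences were 0.53 and 0.47 (limma adjusted p = 0.000273 and 0.000978). NPC1, which exports cholesterol from the lysosome, passed in MUTZ-5. It had 11.08, 11.10 and 11.12 in MHH-CALL4 JQ1 arrays and 11.01, 11.14 and 11.06 in DMSO arrays, which overlapped, while MUTZ-5 gave 11.24, 11.24 and 11.24 under JQ1 and 10.76, 10.64 and 10.94 under DMSO, which did not. NPC1 differed by 0.028 in MHH-CALL4 without passing, and rose by 0.46 in MUTZ-5 (adjusted p = 0.000875). LAMP1 and LAMP2, the abundant glycoproteins that line the membrane, did not pass in either line. LAMP2 differed by 0.17 and 0.18, and LAMP1 by -0.0058 and 0.035.

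The vacuolar ATPase has a peripheral V1 sector that hydrolyses ATP and a V0 sector through which protons pass. ATP6V1A, the catalytic subunit of V1, had 10.49, 10.33 and 10.26 in MHH-CALL4 JQ1 arrays, against 9.91, 9.90 and 9.80 in DMSO arrays. In MUTZ-5 it had 10.90, 10.82 and 10.56 under JQ1 and 10.14, 9.98 and 10.45 under DMSO. JQ1 arrays lay above DMSO arrays in both lines, and ATP6V1A rose by 0.49 and by 0.57 (limma adjusted p = 0.00772 and 0.00335). ATP6V0D1, a V0 subunit that links it to V1, rose by 0.35 and by 0.44 (adjusted p = 0.00413 and 0.00109). Its values were 11.89, 11.80 and 11.99 in MUTZ-5 JQ1 arrays, against 11.51, 11.33 and 11.52 in DMSO arrays, and the groups did not overlap in either line. ATP6V1H, ATP6AP1 and ATP6V0A1 did not pass in either line, with differences from 0.025 to 0.19. ATP6V0A1 had low values that varied widely, with an SD of 0.57 over the MHH-CALL4 DMSO arrays, so its interval of -0.37 to 0.74 covers the effects of the other subunits.

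TFEB and TFE3 are helix-loop-helix factors that bind the CLEAR element. TFEB had 9.13, 9.19 and 9.23 in MUTZ-5 JQ1 arrays, against 9.45, 9.55 and 9.60 in DMSO arrays, and 9.00, 8.95 and 8.95 in MHH-CALL4 JQ1 arrays, against 9.08, 9.10 and 9.19 in DMSO arrays. All JQ1 values were lower in both lines. TFEB fell by 0.35 in MUTZ-5 (limma adjusted p = 0.00201), and its difference of -0.15 in MHH-CALL4 did not pass (adjusted p = 0.113). TFE3 had 9.23, 9.33 and 9.35 in MHH-CALL4 JQ1 arrays, against 8.93, 9.05 and 8.98 in DMSO arrays, and 9.16, 9.17 and 9.19 in MUTZ-5 JQ1 arrays, against 9.10, 8.86 and 9.02 in DMSO arrays. It rose by 0.32 in MHH-CALL4 (adjusted p = 0.00669), and its difference of 0.18 in MUTZ-5 did not pass (adjusted p = 0.125), although no arrays overlapped. The activity of these factors is set by where they sit in the cell, which arrays of RNA do not measure.

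Of the 6 autophagy genes 3 rose in each line. MAP1LC3B, the ubiquitin-like protein LC3B that is attached to the autophagosome membrane, had 13.10, 13.24 and 13.11 in MHH-CALL4 JQ1 arrays, against 12.49, 12.62 and 12.42 in DMSO arrays. In MUTZ-5 it had 13.02, 12.99 and 13.01 under JQ1 and 12.50, 12.49 and 12.68 under DMSO. The groups did not overlap, and MAP1LC3B rose by 0.64 and by 0.45 (limma adjusted p = 4.48e-05 and 0.000999). A near-identical gene copy is known for MAP1LC3B, so its probes may also read that copy. GABARAPL2, a relative of LC3B, had 11.31, 11.18 and 11.21 in MHH-CALL4 JQ1 arrays and 10.96, 11.12 and 10.91 in DMSO arrays, and 11.36, 11.25 and 11.31 in MUTZ-5 JQ1 arrays and 10.79, 10.80 and 10.97 in DMSO arrays. It rose by 0.24 and by 0.45 (adjusted p = 0.0395 and 0.00104), and the first call was lost in 11 of 20 alternative settings. ULK1, the kinase that starts autophagosome formation, had 9.90, 9.98 and 10.04 in MHH-CALL4 JQ1 arrays and 9.54, 9.69 and 9.64 in DMSO arrays, and rose by 0.35 there and by 0.33 in MUTZ-5 (adjusted p = 0.00422 and 0.00744). UVRAG, a partner of the PI3-kinase complex of autophagy and endosomes, fell by 0.22 in MHH-CALL4 (adjusted p = 0.0472), a call lost in 15 of 20 alternative settings, and differed by -0.15 in MUTZ-5 without passing. ATG5 and ATG7, which act in the conjugation of LC3-like proteins, did not pass in either line, with differences of 0.026 and 0.061 for ATG5 and of -0.25 and 0.055 for ATG7.

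**Figure D3:**
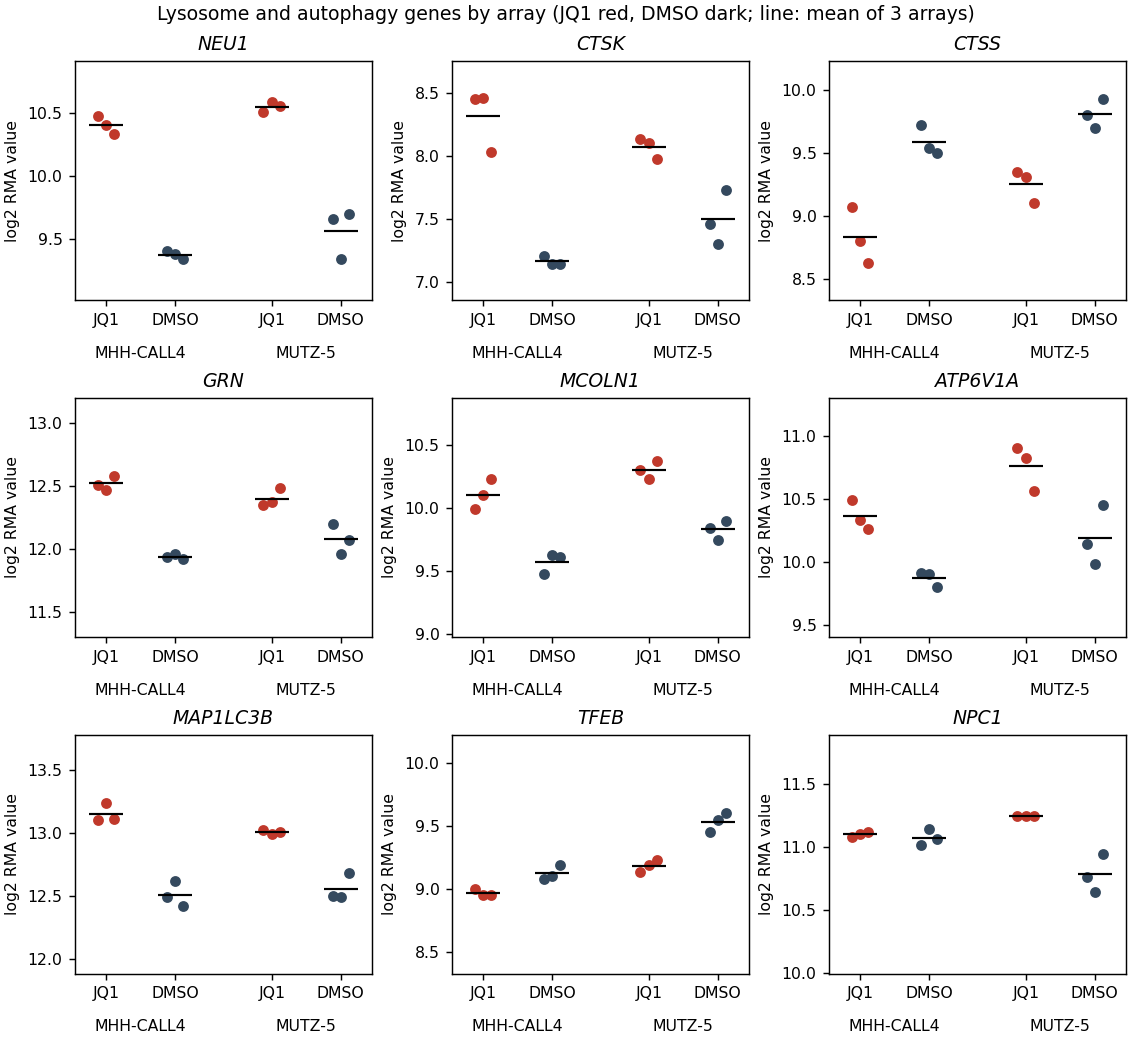
Log2 RMA values of 9 members by array, JQ1 (red) left of DMSO (dark) in each line, with the mean of 3 arrays as a line and a vertical span of equal length in all panels. NEU1, CTSK, GRN, MCOLN1, ATP6V1A and MAP1LC3B have every JQ1 array above every DMSO array of its line, CTSS and TFEB have every JQ1 array below, and NPC1 overlaps in MHH-CALL4.

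The lines were then compared. In both lines 12 members rose (5.74% of all genes tested rose in both): NEU1, CTSA, CTSB, CTSK, GAA, GRN, MCOLN1, ATP6V0D1, ATP6V1A, MAP1LC3B, GABARAPL2 and ULK1. CTSS fell in both, as did 10.6% of all genes. The other called members passed in 1 line: TFE3 (higher), HEXA and UVRAG (lower) in MHH-CALL4, and GLA, GUSB, PSAP, NPC1 (higher) and TFEB (lower) in MUTZ-5, and 9 passed in neither. No member was called in opposite directions, and 27 of 30 had the same sign in both lines, against 74.5% of all genes. Across the 30 genes the effects in the lines had r = 0.852 (0.767 across all genes), a description across genes, which are not independent replicates. The difference of the JQ1 effects between lines (MUTZ-5 minus MHH-CALL4) passed for none of the 30 members in limma, against 1.53% of all genes. Of the members 4 had an unadjusted p under 0.05. NPC1 had the lowest adjusted p, with a difference of 0.43 (0.19 to 0.67, adjusted p = 0.0899), followed by CTSK with -0.58, in size the larger difference, and GLA with 0.40 (adjusted p = 0.156 and 0.314). Over the members the 95% interval of this difference had a median half-width of 0.24 log2, so differences smaller than that were mostly not detectable with these arrays. This interval is not adjusted for the number of genes, and larger differences, such as that of NPC1, also did not pass. The NPC1 difference passed in 4 of 19 alternative settings: median centring, cyclic loess, trend and robust eBayes, and without MUTZ-5 DMSO replicate 3 (0.51, adjusted p = 0.0147). It did not pass in the others, where adjusted p reached 0.212. The CTSK difference passed in 1 of 18, without MHH-CALL4 JQ1 replicate 3 (-0.73, adjusted p = 0.0268). With extended summaries it was -0.36 (adjusted p = 0.64).

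The lines also differed in these genes without JQ1. Under DMSO 2 of the 30 members were higher in MUTZ-5 than in MHH-CALL4 (11.9% of all genes) and 7 were lower (11.5% of all genes). TFEB was higher, with 9.45, 9.55 and 9.60 in MUTZ-5 and 9.08, 9.10 and 9.19 in MHH-CALL4 (difference 0.41, limma adjusted p = 0.000470), and MCOLN1 was higher by 0.26 (adjusted p = 0.0346), a call lost in 6 of 19 alternative settings. LAMP1 was lower, with 10.91, 10.80 and 10.89 in MUTZ-5 and 11.24, 11.40 and 11.33 in MHH-CALL4 (difference -0.46, adjusted p = 0.000181). CTSB and GLA were lower in MUTZ-5 by differences of -0.41 and -0.45 (adjusted p = 0.00167 and 0.00603), and like those of TFEB and LAMP1 these calls held in all 19 alternatives. NPC1 and HEXA were lower, with differences of -0.29 and -0.25 (adjusted p = 0.0165 and 0.0311), and each call was lost in 3 of 19. CTSA and UVRAG were lower, each with a difference of -0.23 (adjusted p = 0.0277 and 0.0467). The CTSA call was lost in 5 of 19, including the replicate block (adjusted p = 0.0636), and the UVRAG call in 12 of 19. These counts moved with single arrays: 1 to 5 members were higher and 3 to 7 lower when 1 array was left out, with 5 higher and 3 lower without MUTZ-5 DMSO replicate 2, the array with the lowest DMSO values for most members. The count of lower members was also 3 without MUTZ-5 DMSO replicate 1 or MHH-CALL4 DMSO replicate 2.

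Other genes of the same compartments, in 6 lists of which 110 genes were measured, gave lower shares of increases, a difference that was not tested. Of these, 15 rose and 14 fell in MHH-CALL4 (13.6% and 12.7%, median 0.061), and 22 rose and 7 fell in MUTZ-5 (20.0% and 6.36%, median 0.089). In MHH-CALL4 the share that rose was near that of all genes. The members and these lists were chosen with earlier results of these data known, so their shares are not independent of that choice. Of 27 other lysosomal enzymes and activators, 4 rose and 3 fell in MHH-CALL4, and 6 rose and 2 fell in MUTZ-5. They include FUCA1, a fucosidase (0.53 in MHH-CALL4, limma adjusted p = 0.00675), GM2A, the activator of GM2 degradation (0.52 in MHH-CALL4 and 0.36 in MUTZ-5, adjusted p = 0.00102 and 0.0139), MANBA, a mannosidase (0.41 in MHH-CALL4 and 0.53 in MUTZ-5, adjusted p = 0.0430 and 0.0139), and SMPD1, acid sphingomyelinase (0.41 in MUTZ-5, adjusted p = 0.00633). The JQ1 and DMSO arrays of MANBA overlapped in MHH-CALL4 and not in MUTZ-5. PPT1, a thioesterase, fell by 0.34 in MHH-CALL4 and 0.39 in MUTZ-5. CTSH fell by 0.38 in MHH-CALL4, and CTSO fell by 0.32 in MUTZ-5. FUCA1 and CTSH did not pass in MUTZ-5, and SMPD1 and CTSO did not pass in MHH-CALL4. Of 11 other proton pump subunits and partners, 1 passed, ATP6AP2, which rose in MUTZ-5 (0.29, adjusted p = 0.0128).

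Of 21 other membrane proteins, 3 rose and 4 fell in MHH-CALL4, and 2 rose and 2 fell in MUTZ-5. TMEM175, an ion channel of lysosomes, rose by 0.49 and by 0.57 (limma adjusted p = 0.00116 and 0.000489), and TMEM192, a lysosomal membrane protein, fell by 0.51 and by 0.49 (adjusted p = 0.00265 and 0.00417). CD63, a tetraspanin, fell by 0.29 in MHH-CALL4 and fell by 0.36 in MUTZ-5. TPCN1, a cation channel, rose by 0.32 and LITAF fell by 0.56 in MHH-CALL4, without passing in MUTZ-5, and ABCB9, a peptide transporter, rose by 0.31 in MUTZ-5 without passing in MHH-CALL4. Of 35 other autophagy genes, 5 rose and 4 fell in MHH-CALL4, and 10 rose and 2 fell in MUTZ-5. VAMP8, a SNARE protein of the fusion of autophagosomes with lysosomes, had the largest change, with 11.05 ± 0.12 under JQ1 and 12.70 ± 0.10 under DMSO in MHH-CALL4, and 9.95 ± 0.021 under JQ1 and 11.46 ± 0.14 under DMSO in MUTZ-5 (mean ± SD, n = 3 arrays). It fell by 1.65 in MHH-CALL4 and fell by 1.51 in MUTZ-5 (limma adjusted p = 2.84e-08 and 1.04e-07). TP53INP1 rose by 0.52 and 0.51 (adjusted p = 6.08e-05 and 0.000101), and ATG2B, a lipid transfer protein, rose by 0.35 and 0.38. CALCOCO2, a cargo receptor, fell by 0.32 in MHH-CALL4 and fell by 0.28 in MUTZ-5. FUNDC1, a mitophagy receptor, fell by 0.48 in MHH-CALL4 without passing in MUTZ-5, and ATG10 rose by 0.49 in MUTZ-5 without passing in MHH-CALL4.

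Of 12 other regulators of lysosomes and nutrient sensing, 2 rose and 2 fell in MHH-CALL4, and 3 rose and 1 fell in MUTZ-5. RPTOR, the subunit that brings substrates to mTORC1, fell by 0.43 and by 0.41 (limma adjusted p = 0.00105 and 0.00206). RRAGC, a Rag GTPase that recruits mTORC1 to lysosomes, rose by 0.31 and by 0.42, while the Rag GTPases RRAGD (fell by 0.61 in MHH-CALL4) and RRAGA (rose by 0.44 in MUTZ-5) passed in 1 line each. FOXO1, a transcription factor, rose by 0.43 in MHH-CALL4 and by 0.36 in MUTZ-5. Of 4 inhibitors of cathepsins, 1 rose and 1 fell in MHH-CALL4, and none passed in MUTZ-5. CST7, cystatin F, had 8.77 ± 0.18 under JQ1 and 10.42 ± 0.13 under DMSO in MHH-CALL4 and fell by 1.66 there (adjusted p = 1.02e-06). In MUTZ-5 it had 8.25 ± 0.091 under JQ1 and 8.29 ± 0.28 under DMSO, and the difference between the lines passed (1.63, adjusted p = 0.000355). CSTB rose by 0.25 in MHH-CALL4 (adjusted p = 0.0159).

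**Figure D4:**
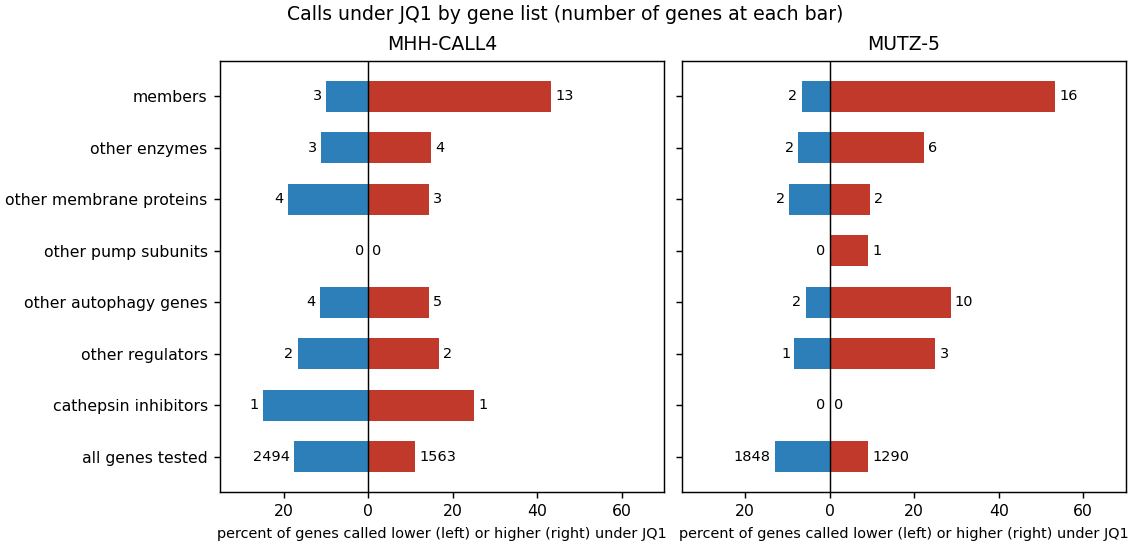
Percent of genes called higher (red, right) and lower (blue, left) under JQ1 in each gene list, for MHH-CALL4 and MUTZ-5, with the number of genes at each bar. The 30 members show 13 and 16 genes higher, the other lists show at most 10, and all genes tested show 1563 and 1290 higher.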

How the data were processed

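RNA was measured in 2 cell lines with 3 arrays per group. The deposited values are log2 values made by the authors with RMA in Affymetrix Expression Console, per the submitters' processing notes and the labels; program version and genome build are not given in the sources used here. Each array is deposited as core and as extended summaries, which count as 1 replicate. Symbols came from the platform annotation (22011 core rows, of which 14432 carry 1 symbol), with the row of highest mean taken for each of 197 genes with several, and no filter on low values, leaving 14232 genes. All 30 members were therefore tested.

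The 12 core arrays were fitted in limma 3.58.1 (R 4.3.3, lmFit and eBayes, 4 group means), with Benjamini-Hochberg adjustment over all genes and two-sided tests. Calls are at adjusted p under 0.05. Array medians lay between 8.46 and 8.57. The files give no detection calls, so signal over background is not known, and the number of arrays limits the precision. The labels do not say that the samples of a group came from separate cultures, so the spread behind the p-values is only that of these samples and may be technical. Scan batches could not be compared.

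The members and lists were chosen with earlier results of these data known. All members are named. Of each related list, up to 2 increases and 2 decreases per line are named, the largest called ones whose JQ1 and DMSO arrays do not overlap, and MYC as a known responder. Promoter windows of 300 bases were searched for CACGTG and TCACGTGA. The 20 alternatives were extended summaries, a replicate block, median centring, cyclic loess, the mean of all rows of a gene, genes at or above the median level, trend and robust eBayes, only the arrays of the line, and leaving out each of the 12 arrays.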

Additional observations from a re-analysis of the deposited data

How the results depend on the processing

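Of the 34 called JQ1 effects of members, 27 stayed past the threshold in every alternative that gave a value, and no called effect changed sign. Calls were lost for GAA and GABARAPL2 (higher) and HEXA and UVRAG (lower) in MHH-CALL4, and for GLA, GAA and GUSB in MUTZ-5; the cause was not tested. Members higher under JQ1 numbered 11 to 14 in MHH-CALL4 and 13 to 16 in MUTZ-5 when 1 array was left out, and 12 to 16 and 14 to 17 under the other alternatives. Members lower numbered 1 to 3 in MHH-CALL4 and 2 to 3 in MUTZ-5 when 1 array was left out, with 1 in MHH-CALL4 without DMSO replicate 2, where HEXA and UVRAG lost their calls, and 1 with extended summaries. With cyclic loess 4 were lower in MUTZ-5. The median effect ranged from 0.13 to 0.24 in MHH-CALL4 and from 0.21 to 0.33 in MUTZ-5.

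The difference between lines passed for 1 member, NPC1, with median centring (adjusted p = 0.0442), cyclic loess (0.0475) and trend and robust eBayes (0.0399), and for 0 to 1 when 1 array was left out. Members higher in MUTZ-5 under DMSO numbered 1 with extended summaries, 4 with cyclic loess and 1 to 5 when 1 array was left out, and members lower 3 to 7. MAP1LC3B under DMSO (MUTZ-5 minus MHH-CALL4) was 0.045 in the core values and -0.30 with extended summaries (adjusted p = 0.0218). Only the arrays of the line gives no value for contrasts between lines.

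Over all genes, decreases were 61.5% of calls in MHH-CALL4 and 58.9% in MUTZ-5, and 51.5% and 48.5% after median centring. Single arrays also moved this share in MUTZ-5: it was 68.2% with DMSO replicate 2 left out, and 47.3% with DMSO replicate 3 left out, when 1673 genes were called higher and 1502 lower. In MUTZ-5 deviations of same-numbered JQ1 and DMSO arrays correlated at -0.17, -0.21 and -0.44. No JQ1 array there correlated most with the DMSO array of its own number. In MHH-CALL4 the correlations of same-numbered arrays were 0.30, 0.070 and 0.23. There JQ1 replicates 1 and 3, but not 2, correlated most with the DMSO array of their own number. Such correlations do not show how the samples were made, so pairing was not settled for either line. With a replicate block 12 members rose and 2 fell in MHH-CALL4, 14 rose and 2 fell in MUTZ-5, 0 differed between lines, and 2 were higher and 5 lower in MUTZ-5 under DMSO, with medians of 0.18 and 0.28.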
